A study of Caenorhabditis elegans with 3 samples.

Results

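The right stretch of the Caenorhabditis elegans X chromosome was described from poly(A) RNA of embryos. It was taken as the loci on X whose deposited start lies at 12 Mb or beyond, which carry a WormBase gene identifier and have a mean of at least 1 FPKM (fragments scaled to transcript length and library size) over 3 genotypes. These were 894 of the 2939 loci on X and of the 15628 loci in the whole genome that met the same conditions on identifier and level. Another 843 loci of the stretch lay under the level, 641 of them at 0 in every genotype. The loci are rows of the authors' table, and a locus can hold several genes.

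In C. elegans, hermaphrodites carry an X pair and males a single X. In hermaphrodite embryos the dosage compensation complex (DCC), which contains a condensin, binds along both X chromosomes and lowers transcription, so that X output matches that of males. SDC-2 brings the complex to X at recruitment elements on X (rex sites), from which it spreads along the chromosome. At some strong rex sites the complex also forms the boundaries of topologically associating domains, which are stretches of chromatin that contact each other preferentially.

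Wild type was strain N2, fed HT115 bacteria with the empty vector pL4440, with 5 replicates in the labels. The 8rex deletion was strain TY5827 on the same food, also with 5 replicates, in which 8 rex sites of X are removed by alleles y572 of rex-32, y743 of rex-33, y738 of rex-14, y671 of rex-47, y737 of rex-8, y741 of rex-43, y742 of rex-48 and y740 of rex-35. The positions of these sites are not in the sources used here, so no locus was set against its distance from a deletion. The DCC mutant was strain TY0810, with allele y93 of sdc-2, fed HT115 bacteria that express sdc-2 RNAi, with 3 replicates. Each genotype was thus represented by 1 strain.

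The authors had combined the replicates of each genotype into 1 FPKM value per locus before deposit. No value below has a standard deviation, no difference has a replicate check of its own, and the number of reads is unknown. Where 3 levels of a locus follow each other below, the order is wild type first, then the 8rex deletion, then the DCC mutant. In each genotype 2 replicates were mixed-stage embryos, and the others were skewed to older embryos. For the older ones, embryos of young adults, bleached 68 to 70 hours after L1 larvae were plated, were kept for 7 to 8 hours at 20 °C. Older embryos made up 3 of 5 replicates in wild type and in the 8rex deletion but 1 of 3 in the DCC mutant, so embryo stage and genotype cannot be told apart in comparisons with the DCC mutant. Of 10 maternal and early-embryo genes at loci of their own, 10 had higher values in the DCC mutant than in wild type (median difference 1.26 in log2(FPKM + 1), summed level 286 (wild type) and 724 FPKM (DCC mutant)). Of 84 cuticle genes, 63 had lower values (median difference -0.26, summed level 13108 and 10897 FPKM). In the 8rex deletion the medians of these lists were 0.20 and 0.03. None of the maternal genes and 4 of the cuticle genes lie in the right stretch, and the part of stage in the results below was not tested. The target gene sdc-2, which lies just left of the stretch, stood at 18.04 (wild type), 16.01 (8rex deletion) and 10.98 FPKM (DCC mutant), and the authors' deposited table gives p = 0.505 for the DCC mutant.

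Protein-coding genes made up most loci of the stretch. Of the 894 loci, 550 held 1 protein-coding gene, 250 held 1 gene annotated as ncRNA, 40 held 1 gene of another type, and 54 held several genes. The coding loci had a median of 11.3 (wild type), 11.45 (8rex deletion) and 18.4 FPKM (DCC mutant), and 486 of the 550 reached 1 FPKM in every genotype. Summed over the 894 loci, the stretch gave 3.05% (wild type), 3.08% (8rex deletion) and 4.08% (DCC mutant) of all FPKM in the table.

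Most coding genes of the stretch stood higher in the DCC mutant than in wild type. The amount of the complex was not measured. Differences are given in log2(FPKM + 1), a scale on which low genes differ by less than their true ratio. The median difference over the 550 coding loci was 0.55, or 1.47-fold, with an interquartile range of 0.27 to 0.79. The value was above 0 at 478 of them (86.9%), where the background over all coding loci of the genome was 52.4%. At least 1.5-fold higher levels were found at 256 loci (46.5%), where the background over all 10837 coding loci of the genome was 17.5%, and at least 1.5-fold lower levels at 30 loci (5.45%, background 13.9%). Over all 894 loci, of every kind, the median was 0.45, with 356 loci higher (39.8%, background 17.6%) and 133 lower (14.9%, background 18.4%), of which 71 and 89 are ncRNA loci. Autosomal coding loci had a median of -0.04 and an interquartile range of -0.36 to 0.26, so the right stretch stood 0.60 above them, or 1.51-fold. In bulk embryos, more RNA per cell and more cells of a type that expresses a gene cannot be told apart.

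The other parts of X had values close to these. The medians over coding loci were 0.54 left of 6 Mb, 0.57 between 6 and 12 Mb and 0.55 in the right stretch, and at least 1.5-fold higher levels were found at 43.2%, 48.5% and 46.5% of loci. With 1 value per genotype, the difference between stretches could not be tested over samples.

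**Figure D1:**
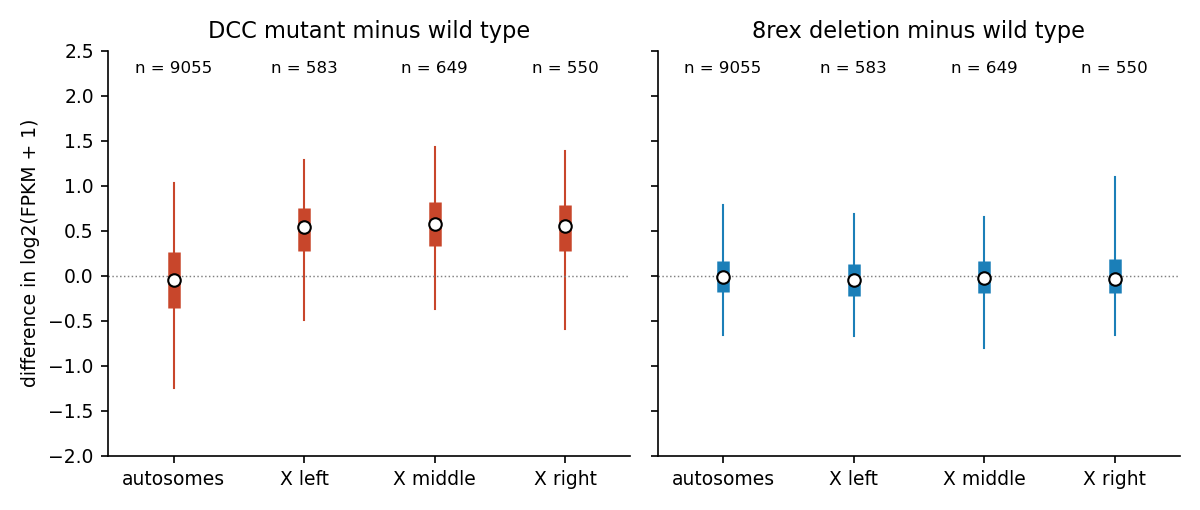
Differences in log2(FPKM + 1) of the DCC mutant (left panel) and the 8rex deletion (right panel) from wild type at loci with 1 protein-coding gene, for the autosomes and 3 stretches of X. White circles are medians over loci, thick bars interquartile ranges and thin lines the 5th to 95th percentile range. In the DCC mutant the medians on X are 0.54, 0.57 and 0.55 against -0.04 on the autosomes, and in the 8rex deletion all lie between -0.05 and -0.01.

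Along the stretch, the difference was of like size in each 1 Mb window. In the DCC mutant the medians over coding loci were 0.61 from 12 to 13 Mb, 0.53 from 13 to 14 Mb, 0.52 from 14 to 15 Mb, 0.58 from 15 to 16 Mb, 0.54 from 16 to 17 Mb and 0.53 from 17 Mb to the end, over 56 to 125 loci a window. Their interquartile ranges overlap throughout. The share of loci at least 1.5-fold higher was largest in the leftmost of these 6 windows, at 56.3%, and smallest from 14 to 15 Mb, at 39.2%.

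**Figure D2:**
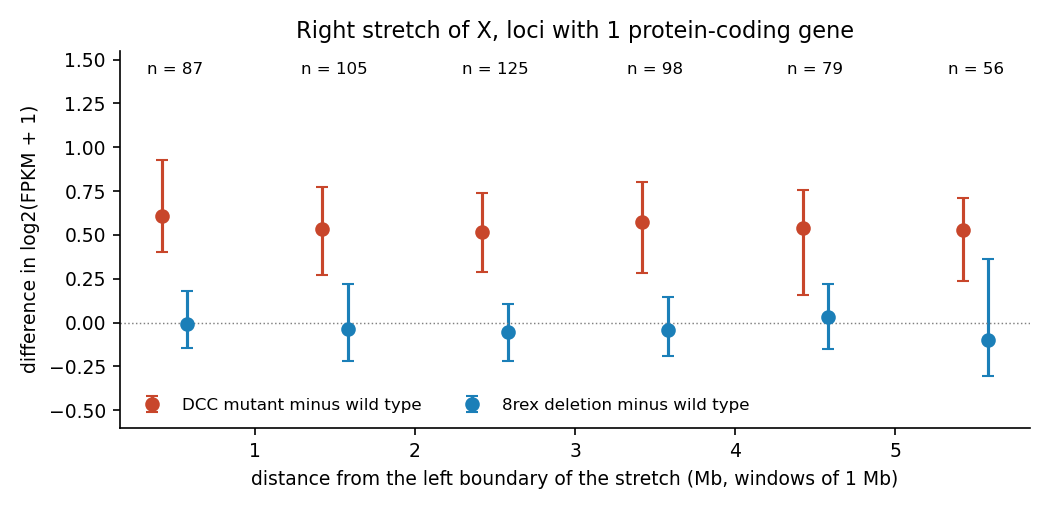
Median difference in log2(FPKM + 1) from wild type in 1 Mb windows of the right stretch, against distance from its left boundary, for the DCC mutant and the 8rex deletion. Bars are interquartile ranges over the coding loci of a window, and n is their number. The DCC mutant medians lie between 0.52 and 0.61 and the 8rex deletion medians between -0.10 and 0.03.

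The difference was found at high and low levels and on both strands. In 4 equal groups of coding loci by mean FPKM, from low to high, the DCC mutant medians were 0.29, 0.64, 0.60 and 0.54. The lowest group reaches up to 3.87 FPKM, where the pseudocount of 1 damps the score. Without a pseudocount, at loci above 0 in both genotypes, the medians of the authors' log2 fold change in their deposited table were 0.41, 0.73, 0.63 and 0.54. Within the highest group 133 of 138 loci were above 0. Genes on the plus strand had a median of 0.58 (287 loci) and those on the minus strand 0.52 (263 loci). In 4 equal groups by annotated gene length, from short to long, the medians were 0.52, 0.60, 0.46 and 0.57.

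Gene by gene, no locus passed the authors' adjusted test. Of the 473 loci of the stretch tested in the DCC mutant, 0 had a q under 0.05 in the authors' deposited table, with 0.991 as the smallest q. The test is not named in the table's header. The count with an unadjusted p under 0.05 was 22 of 473 (4.65%), where the background over the genome's 9509 tested loci was 2.07%. Of the 22, 21 were higher in the DCC mutant (4.44% of the tests, background 1.39%) and 1 was lower (background 0.684%). The authors' p ran high over the genome, with a median of 0.668, and lower in the stretch, with a median of 0.329. At each of the 21 higher loci the level in the DCC mutant was also above that of the 8rex deletion. The loci were picked for high DCC mutant levels, so little can be read from this. Of the 19 that were above 0 in wild type, the ratio of the DCC mutant to wild type ran from 1.74 to 6.14 with a median of 2.57. In the 8rex deletion, 15 of the 19 stood within 1.5-fold of wild type. Most coding loci of the stretch also stood within 1.5-fold there, in log2(FPKM + 1), so this is no trait of the 19. Of all 550, 56 were at least 1.5-fold higher in the 8rex deletion (10.2%, background 7.8%). Another 32 were at least 1.5-fold lower (5.82%, background 6.43%).

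The lowest p in the stretch belonged to myo-2, which encodes a myosin heavy chain of pharyngeal muscle. The gene (WBGene00003514, ce11 X:12468061-12475348, plus strand) stood at 36.2 (wild type), 42.8 (8rex deletion) and 93.1 FPKM (DCC mutant). The DCC mutant value was 2.57-fold that of wild type, with p = 0.0015 in the authors' deposited table, and the 8rex deletion lay close to wild type (p = 0.501 in the authors' deposited table). Among the loci with an authors' p under 0.05, eat-20 and eat-17 also act in the pharynx. The former encodes a membrane protein with EGF-like repeats and the latter a Rab GTPase-activating protein. No list of pharyngeal genes was drawn up, so no pattern is read from these genes. The level of eat-20 (X:15510011-15524030) was 67.8 (wild type), 74.7 (8rex deletion) and 122.6 FPKM (DCC mutant) (the authors' deposited table gives p = 0.0311). For eat-17 (X:16399210-16416840) the levels were 80.6, 101.3 and 153 FPKM in the same order, and the authors' deposited table gives p = 0.0481 for the DCC mutant.

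Among genes of transcription and chromatin, the homeobox gene ceh-40 of the PBC class (X:12318126-12320777) stood at 13.2 (wild type), 12.4 (8rex deletion) and 43.5 FPKM (DCC mutant), which is a ratio of 3.30 between the DCC mutant and wild type (the authors' deposited table gives p = 0.0138). The gene taf-3 (X:16332435-16346028), for a subunit of the general transcription factor TFIID, stood at 63.9, 65.4 and 111.3 FPKM, and jmjd-3.3 (X:13436422-13441438), of a family of histone demethylases, at 2.16, 2.81 and 6.61 FPKM. The authors' deposited table gives p = 0.0439 and p = 0.0295 for the DCC mutant. The gene csb-1 (X:15861294-15865918), homologous to the human repair gene of Cockayne syndrome B, stood at 7.57, 7.52 and 15.2 FPKM (the authors' deposited table gives p = 0.0438). These genes were named for their p in the DCC mutant, so its distance from wild type was set by that choice. In the 8rex deletion they stood within 1.5-fold of wild type, as did most coding loci of the stretch. The authors did not test jmjd-3.3 in the 8rex deletion.

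The gene adt-1 (X:12678832-12689279), which encodes a secreted ADAMTS metalloprotease, stood at 19.8 (wild type), 20.9 (8rex deletion) and 45.04 FPKM (DCC mutant), a ratio of 2.27 (the authors' deposited table gives p = 0.0072). For adm-2, of the related ADAM family (X:13687955-13695801), the levels were 26.1, 32.0 and 50.6 FPKM, with p = 0.0217 in the authors' deposited table for the DCC mutant. The level of bra-1, for a protein related to the human receptor-associated protein BRAM1 (X:13598449-13599687), was 58.1, 54.8 and 119.9 FPKM, and that of sid-3, for a tyrosine kinase needed for import of double-stranded RNA (X:17186380-17193292), was 38.4, 42.3 and 70.6 FPKM. The authors' deposited table gives p = 0.0218 and p = 0.0347 for the DCC mutant. The gene frpr-17, of the FMRFamide peptide receptor family (X:14406117-14411258), stood at 2.92, 4.77 and 13.97 FPKM (the authors' deposited table gives p = 0.0266 for the DCC mutant).

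The remaining higher loci have no gene role given here. K02D3.1 stood at 3.58, 7.85 and 20.0 FPKM, and C29F7.10 at 2.15, 5.74 and 13.2 FPKM. In the 8rex deletion the authors' deposited table gives p = 0.191 for K02D3.1 and p = 0.107 for C29F7.10. At most of the higher loci the 8rex deletion lay between the others. The loci were picked for high DCC mutant levels, so nothing is read from this order. W03G11.4 stood at 209 (wild type) and 378 FPKM (DCC mutant), F17A2.13 at 12.8 and 37.2 FPKM, F35B3.4 at 4.16 and 15.7 FPKM, F53H4.4 at 3.52 and 10.5 FPKM and K03A11.1 at 3.26 and 10.4 FPKM. F28H6.8 was listed at 0 in wild type and the 8rex deletion and stood at 8.97 FPKM in the DCC mutant. The pseudogene WBGene00045273 was listed at 0 in wild type and had 4.69 FPKM (8rex deletion) and 6.43 FPKM (DCC mutant). The authors' deposited table gives p between 0.00485 and 0.0451 for these 9 loci in the DCC mutant.

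A single locus was lower at that threshold. The locus of H40L08.2 and its overlapping ncRNA gene H40L08.6 (X:15076690-15077746, minus strand) stood at 338 (wild type), 128 (8rex deletion) and 157 FPKM (DCC mutant). Both mutants lay well below wild type, and the authors' deposited table gives p = 0.0032 (8rex deletion) and p = 0.0377 (DCC mutant). Both comparisons share the wild-type value. The share of each gene in the locus is not known.

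**Figure D3:**
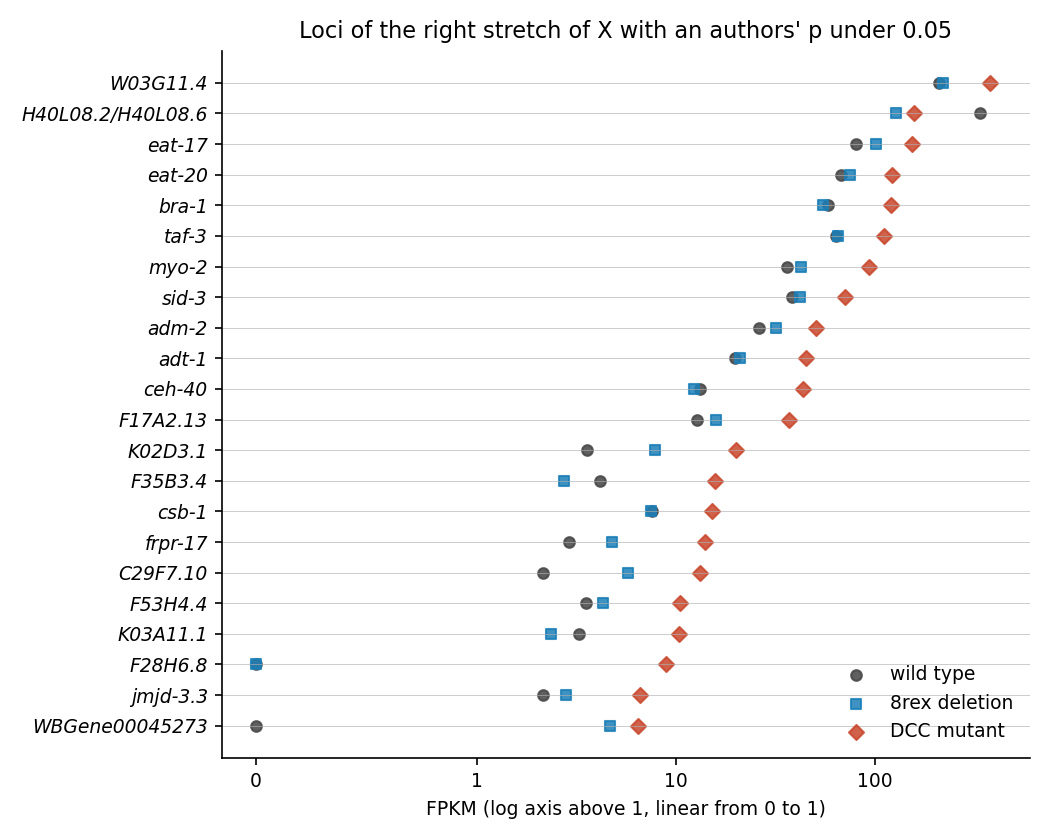
FPKM of each genotype at the 22 loci of the right stretch with an unadjusted authors' p under 0.05 in at least 1 comparison, each point being the pooled value of a genotype. The DCC mutant is the highest of the 3 at 21 loci, and wild type is the highest at H40L08.2/H40L08.6.

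Of the 10 loci with the highest mean FPKM, 9 were higher in the DCC mutant, with ratios to wild type between 0.997 and 1.64 (median 1.41), and the lowest p among them in the authors' deposited table was 0.0786. The linker histone gene his-24 (X:14490094-14491119) stood at 1459 (wild type), 1429.6 (8rex deletion) and 2086 FPKM (DCC mutant) (the authors' deposited table gives p = 0.275). The gene let-2, which encodes a chain of type IV collagen of basement membranes (X:16380597-16389340), stood at 374, 439.7 and 615 FPKM (the authors' deposited table gives p = 0.0786). The muscle myosin light chain gene mlc-1 stood at 279.7, 281 and 397 FPKM, and the cytochrome b5 gene cytb-5.1 at 379, 371 and 483 FPKM. The other 6 are loci of several genes. The locus of mlc-2, the trehalose-phosphate synthase gene tps-1 and slc-17.1 stood at 643, 640.4 and 900.4 FPKM, and that of the acyl-CoA dehydrogenase genes acdh-10 and acdh-7 at 453, 434 and 568 FPKM. The locus of serp-1.1 and its neighbours stood at 808, 684 and 1182 FPKM, that of cdh-9 and ain-1 at 339, 342 and 484 FPKM, and that of let-4, sym-1, tap-1 and lron-1 at 290.4, 273 and 381 FPKM. The locus of R106.6 and R106.7 was level in all genotypes, at 592, 592 and 590.0 FPKM. In the 8rex deletion the 10 ratios to wild type ran from 0.847 to 1.18.

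Genes were grouped by role with 16 lists, of which 14 had loci in the stretch. A locus of several genes was counted where any of its genes was on the list. Some such loci stand in more than 1 list, as those of nhr-48 with lin-15B and of nhr-1 with sup-10 do. The DCC mutant median was above 0 in 13 of the 14 lists and below 0 in the chemoreceptor list. The values to read them against are those of the coding loci of the stretch. Their median was 0.55, with 86.9% above 0 and 46.5% at least 1.5-fold higher. None of the lists was tested, and nothing is read from their order.

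The 7 loci of the chromatin and nuclear list were all above 0, with a median of 0.72, 4 at least 1.5-fold higher and 2 at an authors' p under 0.05 (taf-3 and jmjd-3.3). One of them is sdc-1, a subunit gene of the dosage compensation complex itself (X:16275763-16282534), at 24.0 (wild type), 22.4 (8rex deletion) and 40.4 FPKM (DCC mutant) (the authors' deposited table gives p = 0.0852). The histone deacetylase gene hda-4 stood at 46.3, 51.1 and 77.0 FPKM (the authors' deposited table gives p = 0.0591), and hpl-1, for a heterochromatin protein of the HP1 family, at 32.2, 24.97 and 42.9 FPKM.

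Of the 6 homeobox loci, 6 were above 0 (median 0.62, 3 at least 1.5-fold higher). Besides ceh-40, ceh-36, which acts in identity of sensory neurons, stood at 23.8, 22.1 and 29.5 FPKM. Of the 13 nuclear receptor loci, 12 were above 0 and 1 below (median 0.58), 6 at least 1.5-fold higher and 1 at least 1.5-fold lower. Several genes are held by 3 of the 13, and the share of each gene in these is not known. The level of nhr-71 was 27.04, 27.02 and 46.97 FPKM (the authors' deposited table gives p = 0.0763) and that of nhr-25, a receptor gene of epidermal development and moulting, 42.9, 41.9 and 59.4 FPKM (p = 0.264 in the same authors' table). The gene nhr-17 has 2 loci that went apart, from 63.2 FPKM in wild type to 27.1 FPKM in the DCC mutant at one and from 46.7 to 50.5 FPKM at the other.

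Among 11 loci of other transcription factors, 10 were above 0, 5 of them at least 1.5-fold higher, and the median was 0.55. The stress-response factor gene atf-4 stood at 165, 153 and 281 FPKM (the authors' deposited table gives p = 0.0539). The motor neuron factor gene unc-3 stood at 30.7, 33.0 and 45.6 FPKM and lin-15A, which acts against vulval fates, at 21.5, 19.6 and 35.5 FPKM. The exception was mxl-3, for a basic helix-loop-helix factor of lipid and nutrient response in the intestine, at 55.3 (wild type), 54.5 (8rex deletion) and 36.3 FPKM (DCC mutant) (the authors' deposited table gives p = 0.263).

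Of 22 loci of channels and of transmitter or peptide receptors, 21 were above 0 in the DCC mutant (median 0.61), 12 at least 1.5-fold higher and 1 at least 1.5-fold lower. Most were low, and the authors tested only 8. The lowest p were those of lgc-25, a ligand-gated channel gene, at 6.58, 7.39 and 13.4 FPKM (the authors' deposited table gives p = 0.0779) and of the peptide receptor gene npr-21 at 7.47, 9.78 and 16.7 FPKM (p = 0.0846 in that authors' deposited table). The touch receptor channel gene mec-4 stood at 1.63, 1.87 and 5.05 FPKM and was not tested by the authors. The gap junction genes unc-9 and unc-7, needed for locomotion, stood at 48.6, 46.5 and 82.6 FPKM and, in a locus with another identifier, at 47.2, 50.5 and 76.2 FPKM. All 7 neuropeptide loci were above 0 (median 0.73, 4 at least 1.5-fold higher), led by nlp-53 at 17.5, 26.5 and 39.6 FPKM (the authors' deposited table gives p = 0.0988). The 6 muscle loci were above 0 with a median of 0.51, and only myo-2 was at least 1.5-fold higher.

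Of 15 matrix and cuticle loci, 14 were above 0 (median 0.64) and 10 at least 1.5-fold higher, among them adt-1 and let-2. Beside let-2, the collagen genes col-186 and col-187 stood far lower, col-186 at 8.95, 8.85 and 15.2 FPKM and col-187 at 2.94, 1.49 and 2.58 FPKM. All 7 signalling loci were above 0 (median 0.61, 5 at least 1.5-fold higher). The casein kinase gene kin-20 stood at 160.0, 185 and 241 FPKM, lin-2, for a scaffold protein of receptor localisation, at 36.9, 33.7 and 60.4 FPKM, and aak-2, for a catalytic subunit of AMP-activated kinase, at 62.2, 58.7 and 84.5 FPKM. The Akt kinase gene akt-2 of insulin signalling stood at 24.8, 24.3 and 32.3 FPKM.

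The 8 detoxification loci had a median of 0.23 with 6 above 0 and 2 below, and the 6 lipid loci a median of 0.41 with 5 above and 1 below. The glucuronosyltransferase gene ugt-50 stood at 154, 145 and 231 FPKM, and the acyltransferase gene mboa-1 at 50.1, 52.8 and 70.8 FPKM. The acyl-CoA oxidase gene acox-1.6 stood at 37.4, 34.8 and 31.6 FPKM. The 3 protein turnover loci had a median of 0.28, and the 3 chemoreceptor loci, all under 5 FPKM in each genotype, a median of -0.15. None of these loci had an authors' p under 0.05. No locus of the stretch belonged to the list of heterochronic and microRNA genes or to that of ribosomal and translation genes.

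**Figure D4:**
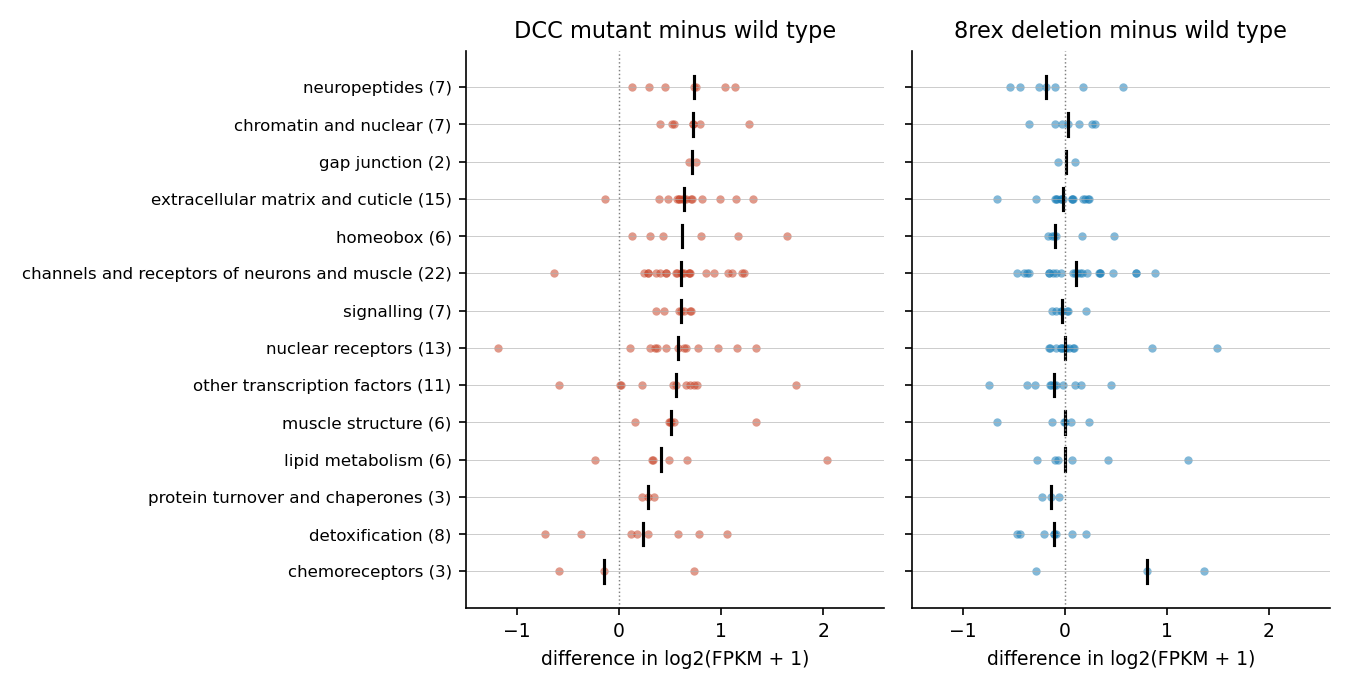
Differences in log2(FPKM + 1) from wild type for loci of the right stretch, grouped by role, in the DCC mutant (left) and the 8rex deletion (right). Each point is a locus, black bars are list medians and the number of loci stands in brackets. In the DCC mutant 13 of the 14 medians lie above 0, with chemoreceptors as the exception, and in the 8rex deletion the medians lie between -0.18 and 0.11 except for the 3 chemoreceptor loci at 0.81.

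In the strain without 8 rex sites, most coding genes of the stretch stood close to wild type. The median difference over the 550 coding loci was -0.03, with an interquartile range of -0.20 to 0.18. Above 0 were 236 loci (42.9%, background 47.3%). Autosomal coding loci had a median of -0.01, the X loci left of 6 Mb -0.05 and those between 6 and 12 Mb -0.03. In the 6 windows the medians ran from -0.10, from 17 Mb to the end, to 0.03, from 16 to 17 Mb. Of 442 tested loci, 0 had a q under 0.05 in the authors' deposited table (smallest 0.9999), and 1 had a p under 0.05, H40L08.2/H40L08.6 (0.226%, background 0.459%).

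Coding loci at least 1.5-fold higher in the 8rex deletion numbered 56 (10.2%, background 7.8%), and those at least 1.5-fold lower 32 (5.82%, background 6.43%). Over all 894 loci, 173 were higher (19.4%, background 13.5%) and 106 lower (11.9%, background 10.8%), but 104 and 64 of these are ncRNA loci, which are often listed at 0 and make up 250 of the 894 loci here but 2240 of the 15628 in the genome. The share of coding loci that were higher was 6.69% left of 6 Mb and 6.01% between 6 and 12 Mb, and the difference between stretches could not be tested over samples. The 56 were spread over the windows, with 10, 11, 10, 10, 8 and 7 from left to right. Of the 56, 39 had a mean under 5 FPKM, 8 were listed at 0 in wild type and 16 had been tested by the authors, none with a p under 0.05. Low levels were as frequent elsewhere, since only 263 of the genome's 845 coding loci that were higher had a mean of at least 5 FPKM. At a mean of at least 5 FPKM, 17 of 384 loci were higher (4.43%) and 12 lower (3.13%), against 3.53% and 3.37% of the autosomal coding loci. Over the 882 coding loci of the rest of X at that level, the shares were 2.38% and 4.76%.

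Some loci with larger differences in the 8rex deletion were named after their values were seen. The gene dmd-4, which encodes a DM-domain transcription factor, stood at 24.2 (wild type), 14.1 (8rex deletion) and 24.4 FPKM (DCC mutant) (the authors' deposited table gives p = 0.124 for the 8rex deletion). F23A7.8 stood at 137, 68.3 and 179 FPKM (the authors' deposited table gives p = 0.145), and F38E9.6 at 22.2, 9.13 and 21.9 FPKM (p = 0.172 in that authors' deposited table). At these 3 loci the 8rex deletion was the lowest genotype. B0302.4 stood at 2.03, 16.9 and 24.1 FPKM, with both mutants above wild type, and was not tested by the authors in the 8rex deletion.

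Loci of ncRNA genes were often listed at 0. Of these 250 loci, wild type was listed at 0 at 124, the 8rex deletion at 83 and the DCC mutant at 140, and 141 reached 1 FPKM in only 1 genotype. A locus that passes the level filter through 1 genotype has to differ, and a listed 0 may stand for an estimate that failed, so the counts of these loci are a description of the table. In the DCC mutant 71 were at least 1.5-fold higher (28.4%) and 89 lower (35.6%), with a median of 0.00. In the 8rex deletion 104 were higher (41.6%) and 64 lower (25.6%), with a median of 0.17. Among autosomal ncRNA loci these shares were 19.9% higher and 44.3% lower in the DCC mutant and 41.7% and 34.5% in the 8rex deletion. Over the 250 loci, 60 were listed at 0 in wild type and above 0 in the DCC mutant, and 76 the other way. Of 6 ncRNA loci that share their deposited start with W03G11.4, 4 were listed at 0 in wild type and the 8rex deletion. These 4 stood between 3.56 and 13.4 FPKM in the DCC mutant, through which alone they passed the level filter. W03G11.12 stood at 11.2 FPKM in wild type and was listed at 0 in both mutants. Nothing is read from this start. The coding locus W03G11.4 was expressed in all genotypes. Whether reads were assigned by strand is not stated in the labels, so overlapping genes here may hold each other's reads.

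**Figure D5:**
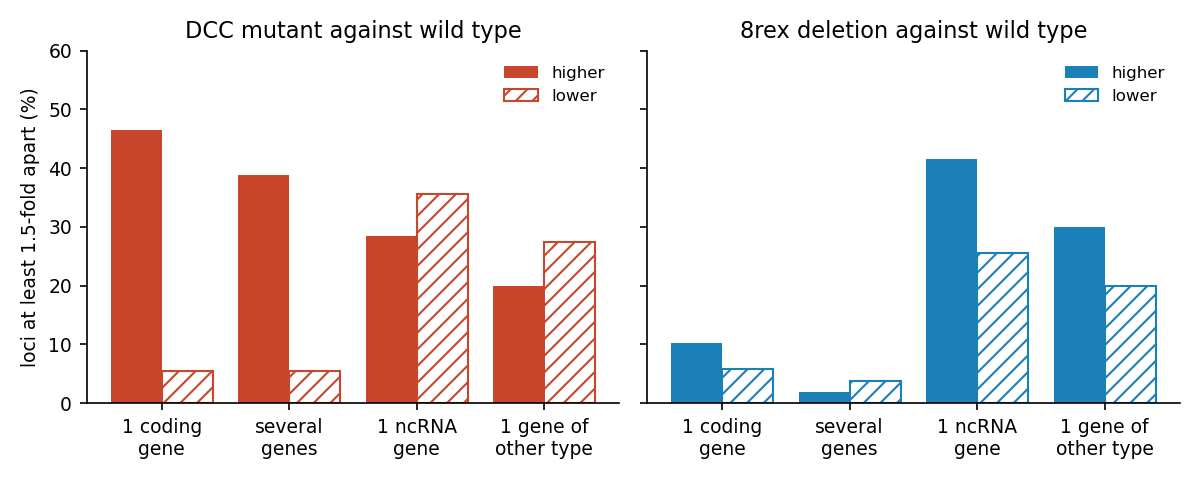
Share of loci of the right stretch, in percent, that were at least 1.5-fold higher (filled bars) or lower (hatched bars) than wild type in log2(FPKM + 1), by kind of locus, in the DCC mutant and the 8rex deletion. In the DCC mutant 46.5% of coding loci are higher and 5.45% lower, while ncRNA loci are split into 28.4% and 35.6%.

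Of the 550 coding loci, 69 were below 0 in the DCC mutant, and 30 were at least 1.5-fold lower. Of the 30 that were at least 1.5-fold lower, 17 had a mean under 5 FPKM, 6 had a listed level of 0 in the DCC mutant and 9 had been tested by the authors. The other 13 had a mean of at least 5 FPKM, as had 643 of the 1504 coding loci of the genome that were at least 1.5-fold lower. The tyrosine aminotransferase gene tatn-1 (X:14791008-14792984) was among those with higher levels, at 29.6 (wild type), 31.9 (8rex deletion) and 12.9 FPKM (DCC mutant) (the authors' deposited table gives p = 0.0546). It was named after its values were seen.

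At the edges of the definition, the loci nearest the boundary inside the stretch were the ncRNA locus W06B3.4, listed at 0 in wild type and at 16.2 and 30.7 FPKM in the 8rex deletion and the DCC mutant, and nmat-1, for an enzyme of NAD synthesis, at 4.68, 2.71 and 11.6 FPKM. Just outside lay the locus C49F5.11 at 132.9, 38.7 and 97.9 FPKM, and sma-5, for a kinase of body size, at 44.9, 44.9 and 70.5 FPKM. The mean FPKM of the loci nearest the level threshold was 1.003 at phf-33 and 1.006 at cyp-14A3, which were kept, and 0.998 at fbxa-81 and 0.999 at F42F12.14, which were not.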

How the data were processed

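The submitters' processing notes name the build ce11 and the tools Cufflinks 2.2.1, TopHat2 2.1.1 and cutadapt 1.2.1; their settings, the annotation and the strandedness were not given there. What the authors deposited is 1 table of 40669 loci with 1 FPKM value per genotype, and, per the file headers, their log2 fold change, p-value and q-value against wild type. A p of 1 was taken as not tested. The deposited log2 fold change equalled the log2 ratio of the FPKM within 4.9e-05 at loci of the stretch above 0 in both genotypes.

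Rows without a gene identifier (242, of which 25 lie in the stretch) were left out. Symbols, gene types and coordinates (1-based) came from Ensembl release 115 for the same assembly, which held 935 of the 951 gene identifiers of the stretch, all on X. The deposited start equalled the annotated gene start minus 1 at 175 of 550 coding loci and lay within 1000 bases at 431; 391 of the 894 loci share their deposited start with another, so a position can be that of a group of overlapping loci. No coding gene of the stretch starts left of 12 Mb in the annotation. There, 14 gene identifiers stand on 2 loci each. No sequences were printed, since no genome was used here.

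The design called for limma on replicates if the table held them. It holds pooled values, so its fallback was used: values, differences in log2(FPKM + 1), counts at 1.5-fold and the authors' p are described, and no test was run. The intervals used to judge alternatives are 95% binomial order-statistic intervals of the median over loci; loci are not replicates. The loci and gene lists were chosen with earlier results of these data known. The naming rule took, per comparison, the 12 largest differences each way at an authors' p under 0.05, the 10 highest levels, up to 4 loci a list by lowest p, and those nearest the thresholds. Of the 21 loci higher in the DCC mutant, W03G11.4, eat-20, eat-17, sid-3, csb-1, adm-2 and bra-1 fall outside it and, like other list members with higher p, were added after their values were seen. The calculation was run on simulated data that left out loci listed at 0 in wild type. Only its medians without a pseudocount were checked against the shift that was put in. The score with a pseudocount and the listed zeros were therefore not checked. Python 3.11.15, numpy 2.4.6, pandas 2.3.3, scipy 1.17.1 and matplotlib 3.10.9 were used.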

Additional observations from a re-analysis of the deposited data

How the results depend on the processing

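No paired analysis was possible because each genotype has 1 pooled value, and for the same reason no replicate could be left out. In the DCC mutant, the median over all 894 loci (0.45) stayed at or above 0 under every alternative. It was 0.33 with a pseudocount of 5 FPKM, 0.55 with none at loci above 0 in both genotypes, 0.00 with no filter on low values, 0.49 with a mean of at least 5 FPKM, 0.52 at loci above 0 in all genotypes, 0.49 with FPKM rescaled to equal autosomal sums and 0.55 over coding loci alone, an alternative chosen after seeing the data. Without the filter, 843 of 1737 loci lie under a mean of 1 FPKM. The median minus that of the autosomes (0.49) was 0.36, 0.59 and 0.00 under the first 3 of these settings, 0.55 at loci above 0 in all genotypes and 0.60 over coding loci. The count of loci at least 1.5-fold lower (133) was 58 with no pseudocount and 83 with a mean of at least 5 FPKM. It was 45 at loci above 0 in all genotypes and 30 over coding loci. All 4 settings use fewer loci. The count of higher loci (356) ran from 252 to 424. The median minus that of the rest of X ran from -0.03 to 0.00.

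In the 8rex deletion the median (0.00) was -0.0402 with no pseudocount, -0.0360 at loci above 0 in all genotypes and -0.0344 over coding loci. Minus the autosomes it was 0.0039 with a pseudocount of 0.1 FPKM, -0.0283, -0.0239 and -0.0241 under those 3 settings and 0.0128 after rescaling. Minus the rest of X it was 0.0049 with a pseudocount of 0.1 FPKM, 0.0121 with a mean of at least 5 FPKM and 0.0142 after rescaling. The counts of loci at least 1.5-fold higher (173) and lower (106) were 95 and 60 with a mean of at least 5 FPKM. They were 64 and 42 at loci above 0 in all genotypes and 56 and 32 over coding loci, and 94 were higher with no pseudocount. A start at 11 or 13 Mb moved no median beyond its interval and no count by over 1.5 times. Among the 22 loci with an authors' p under 0.05, no difference changed sign under rescaling, whose factors were only 1.03 (DCC mutant) and 0.981 (8rex deletion). Another pseudocount cannot change the sign. It moved the difference by at least 1.5-fold at 5 of these loci. At F28H6.8 in the DCC mutant the difference of 3.32 became 6.50 with a pseudocount of 0.1 FPKM and 1.48 with 5 FPKM. Depth is unknown, so how far it limits low loci cannot be said.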

Other observations

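Within the stretch, 14 gene identifiers stand on 2 loci each, with C30E1.9 and F52G3.6 on the same 2. At 4 of the 14 in the DCC mutant and 8 in the 8rex deletion the loci differ from wild type in opposite directions. Over the coding loci of the stretch, 86.9% were above 0 in the DCC mutant and 42.9% in the 8rex deletion. Opposite signs are therefore frequent at any 2 loci in the 8rex deletion, and some differences were small, as at W06D11.1 (-0.15 and 0.07). The gene gmeb-2 stood at 3.28 (wild type), 19.3 (8rex deletion) and 1.61 FPKM (DCC mutant) at one locus and at 39.4, 39.7 and 50.1 FPKM at the other. The gene F39F10.4 stood at 10.5, 13.5 and 3.64 FPKM at one locus and at 9.92, 7.55 and 16.9 FPKM at the other, and F17H10.1 at 26.7, 27.1 and 32.5 FPKM and at 4.81, 16.6 and 38.5 FPKM. For C03H12.1 the levels were 37.7, 37.8 and 50.0 FPKM at one locus and 47.2, 120.4 and 196 FPKM at the other. The deposited values do not say which locus carries the level of such a gene.

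Coding loci that share their deposited start with another locus had the same central difference as those with a start of their own, with medians of 0.55 (199 loci) and 0.56 (351 loci) in the DCC mutant. In the 8rex deletion 7.54% of the former and 11.7% of the latter were at least 1.5-fold higher, and 3.02% and 7.41% lower.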
